A study of Mus musculus with 4 samples.

Results

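The chemokine genes of the mouse were examined in HFSCs, the CD34-positive cells sorted from hair follicles, after 10 and after 48 passages in culture. Members were taken by gene symbol, as every Ccl and Cxcl gene together with Cx3cl1, Xcl1, Ppbp and Pf4, and 41 of the 24346 genes listed in each library were members. They were 24 CC genes, 15 CXC genes including Ppbp and Pf4, and the single genes Cx3cl1 and Xcl1. The rule uses gene symbols alone.

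RNA was sequenced in 4 libraries, 2 of HFSCs passaged 10 times (10p-HFSCs) and 2 of HFSCs passaged 48 times (48p-HFSCs). Both groups were C3H/HeN cells sorted as positive for CD49f and CD34 from dorsal skin of 4-week-old mice, then grown in the medium M-CnT with a passage each week, without serum or feeder cells. The deposited value is the FPKM of each gene, a fragment count scaled to the length of the transcript and to the size of the library, so that levels of different genes can be compared per length. It is not stated whether replicates were separate cultures, and p-values therefore measure the spread between these libraries, which may be technical.

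Chemokines are small secreted proteins that guide the movement of leukocytes, and they bind G protein-coupled receptors on the cells they attract. They are named CC, CXC, CX3C or C after the spacing of their first cysteines, and most of their genes lie in clusters of related copies. In skin, keratinocytes release chemokines after wounding or infection. Many chemokine genes are switched on by the transcription factor NF-kB or by interferon.

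The depth of each library can be given only in relative terms, because FPKM values carry no read totals. Taken from the ratio that recurred most often among low values, depth relative to the first 10p-HFSC library was 71.6% for the second, 82.9% for replicate 1 after 48 passages and 46.7% for replicate 2 after 48 passages. Summed FPKM over all genes lay between 581516 and 719012 in the other 3 libraries and was 1414950 in replicate 2 of 48p-HFSCs. Of 11 keratinocyte and follicle stem cell markers, 9 passed the filter on low values, and Krt5 and Krt14 were above 1200 in every library. Cd34, the marker used for sorting, was at most 0.234 in any library. Lhx2 was at 0.0241 in replicate 1 of 10p-HFSCs and at 0 in the other libraries. Itga6, which encodes CD49f, the other sorting marker, was at 20.8 or more in every library. It was called higher after 48 passages (log2 difference 1.77, limma adjusted p = 0.014). Itgb4, another marker of this list, was also called higher (log2 difference 1.01, limma adjusted p = 0.049). Krt15, a keratin of the bulge, was at 136 and 82.6 after 10 passages, against 425 and 18.8 after 48 passages. Sox9, a transcription factor of follicle stem cells, was called lower after 48 passages (log2 difference -1.71, limma adjusted p = 0.039). The paper reports the opposite direction for Sox9 by qRT-PCR, a significant increase in the long-term culture. The cause of this disagreement was not tested. Krt5 and Krt14 mark basal keratinocytes in general. The RNA of Cd34 and Lhx2 in these libraries does not bear out the label, while Itga6, Krt15 and Sox9 were at 8.31 or more in every library. The paper reports CD34 protein on most of the passaged cells. By qRT-PCR it reports Cd34 as maintained and Lhx2 as increased in the long-term culture. The marker RNA read here therefore does not settle the identity of the cells.

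Upstream sequences are shown for 6 members of clusters that hold genes called between the groups, so that neighbours with different responses can be compared. They were the 250 bases before the start site in the RefSeq promoter table for GRCm38.p6, the C57BL/6J assembly of which mm10 is another name, and not the sequence of the C3H/HeN cells. The windows were chr5:90768268-90768517 for Ppbp, chr5:90785851-90786100 for Cxcl3, chr5:90890995-90891244 for Cxcl1, chr5:90903649-90903898 for Cxcl2 and chr11:82114935-82115184 for Ccl8, all on the plus strand, and chr5:92348890-92349139 on the minus strand for Cxcl10. Capitals mark matches on either strand to the NF-kB motif or to the core of the interferon-stimulated response element (ISRE).
Ppbp: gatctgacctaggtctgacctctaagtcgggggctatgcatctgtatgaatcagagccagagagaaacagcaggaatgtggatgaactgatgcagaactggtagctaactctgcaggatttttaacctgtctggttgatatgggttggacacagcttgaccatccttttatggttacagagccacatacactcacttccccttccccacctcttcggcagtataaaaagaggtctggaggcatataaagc
Cxcl3: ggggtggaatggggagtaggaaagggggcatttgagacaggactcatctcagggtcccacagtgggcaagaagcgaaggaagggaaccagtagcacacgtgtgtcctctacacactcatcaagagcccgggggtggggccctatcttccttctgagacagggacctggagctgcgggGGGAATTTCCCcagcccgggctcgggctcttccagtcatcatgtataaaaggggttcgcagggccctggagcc
Cxcl1: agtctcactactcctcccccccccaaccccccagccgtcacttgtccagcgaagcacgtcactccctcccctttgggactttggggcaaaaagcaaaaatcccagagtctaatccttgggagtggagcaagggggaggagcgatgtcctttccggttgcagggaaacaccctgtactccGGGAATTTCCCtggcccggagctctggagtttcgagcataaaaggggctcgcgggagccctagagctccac
Cxcl2: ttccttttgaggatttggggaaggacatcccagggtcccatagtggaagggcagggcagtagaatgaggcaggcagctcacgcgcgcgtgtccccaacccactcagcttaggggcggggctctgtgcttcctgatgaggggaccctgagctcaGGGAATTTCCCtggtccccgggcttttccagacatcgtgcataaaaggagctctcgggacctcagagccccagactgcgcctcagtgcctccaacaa
Cxcl10: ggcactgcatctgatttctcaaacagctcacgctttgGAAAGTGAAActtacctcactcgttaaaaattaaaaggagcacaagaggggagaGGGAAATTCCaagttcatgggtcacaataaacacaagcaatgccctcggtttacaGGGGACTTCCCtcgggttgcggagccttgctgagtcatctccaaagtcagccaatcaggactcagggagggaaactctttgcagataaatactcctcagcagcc
Ccl8: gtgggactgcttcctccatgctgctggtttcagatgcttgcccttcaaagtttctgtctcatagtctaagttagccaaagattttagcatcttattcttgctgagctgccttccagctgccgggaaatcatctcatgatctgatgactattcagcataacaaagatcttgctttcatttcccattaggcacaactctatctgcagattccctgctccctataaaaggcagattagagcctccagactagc

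Cxcl1, Cxcl2 and Cxcl3 each held an 11-base run made of overlapping matches to the NF-kB motif, whose first base lay 71, 97 and 73 bases before the start site. Cxcl10 held a match 159 bases before its start site and overlapping matches 104 and 103 bases before it. It also held the only ISRE core among the 6 windows, 213 bases before the start site. Neither motif matched in the windows of Ppbp and Ccl8. Of all 32851 windows of this length in the table, 7.25% held the NF-kB motif and 2.98% held the ISRE core. Promoter windows, 35 in all, were found for 29 of the 41 members, and not for the called genes Ccl5 and Cxcl5. Counted by gene, 7 members held the NF-kB motif in any window and 3 held the ISRE core. Of these, 4 and 1 reached an FPKM of 1 in any library. The shares of all windows are per window, so that they are not matched to these counts per gene. A match is a run of letters and not a measured binding site.

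Most chemokine genes were silent or nearly so in both groups. Of the 41 members, 15 were listed at 0 in all 4 libraries, 10 were detected but stayed under an FPKM of 1, and 16 reached 1 in at least 1 library. The 15 genes at 0 included Cxcl12 and Cxcl14, Ccl19 with the Ccl21 copies, Ccl22, Ccl24, Cxcl11 and Xcl1. In 10p-HFSCs, 6 and 5 members reached an FPKM of 1 in replicates 1 and 2, and in 48p-HFSCs 14 and 12 did. The members' summed FPKM was 58.9 and 75.5 in the 10p-HFSC libraries, and 161 and 304 in the 48p-HFSC libraries. As a share of the summed FPKM of all genes this was 0.0101% and 0.0105% after 10 passages, against 0.0241% and 0.0215% after 48 passages, so that the groups were apart on both scales. RNA of whole cultures cannot tell more producing cells from more RNA per cell.

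**Figure D1:**
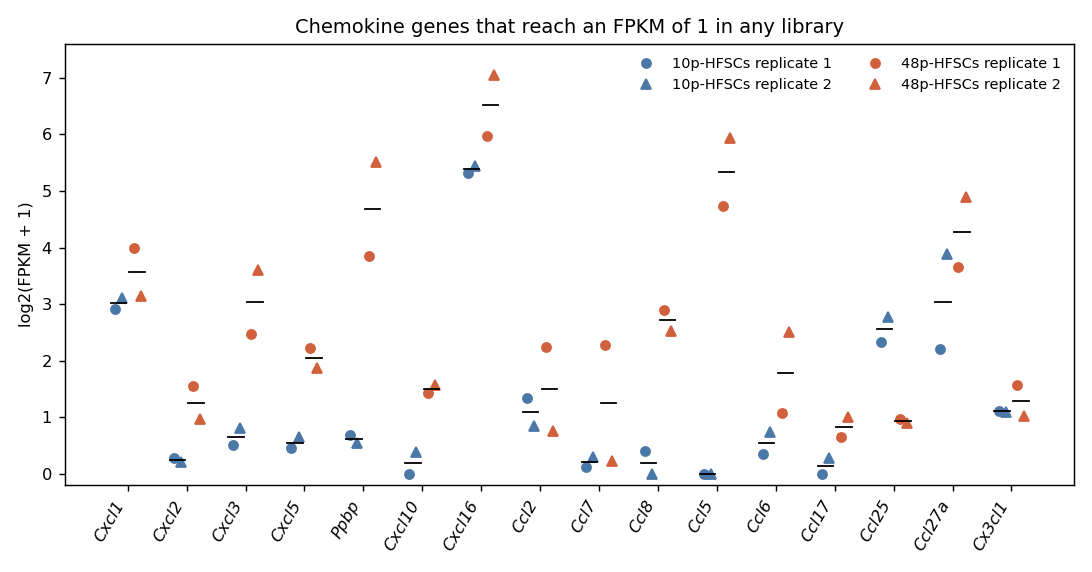
FPKM of the 16 chemokine genes that reach 1 in any library, on the log2(FPKM + 1) scale, with circles for replicate 1, triangles for replicate 2, blue for 10p-HFSCs, orange for 48p-HFSCs and a bar at each group's mean. Ccl5 is at 0 in each blue point and at 25.6 and 60.5 in the orange ones, and Cxcl16 is the highest gene in every library.

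Groups were compared with limma on the log2(FPKM + 1) scale over the 11018 genes that reached an FPKM of 1 in 2 or more of the libraries, and a gene was called at a Benjamini-Hochberg adjusted p-value under 0.05 with a log2 difference of at least 1. Of the 13 members that passed this filter, 6 were called higher in 48p-HFSCs, namely Ccl5, Ppbp, Ccl8, Cxcl3, Cxcl5 and Cxcl10. Of all genes tested, 10.8% were called higher. One member, Ccl25, was called lower, against 9.15% of all genes. The remaining 6 were Ccl2, Ccl6, Ccl27a, Cxcl1, Cxcl16 and Cx3cl1. From the same libraries, by another method, the paper lists the 6 genes called higher here among its up-regulated genes. Its list also holds Ccl6 and Cxcl16, which were not called here. Among the 13 tested, both 48p libraries exceeded both 10p libraries for 9 members, as for 31.7% of all genes, and lay below them for 1, as for 34.3%. Over all 41 members, tested or not, the counts were 14 and 2, against 19.4% and 20.4% of all genes listed. An unadjusted p under 0.05 was reached by 9 of the 13 and by 37.4% of all genes. Of the 13, 7 passed the filter only through the 48p-HFSC libraries, among them all 6 genes called higher, and 1 passed only through the 10p-HFSC libraries, so that their direction was in part set by the filter. When all genes above 0 in any library were tested, an alternative added after the values had been seen, 26 members entered and 5 were called higher, against 4.89% of 16679 genes. Cxcl3 was the one lost. With no filter at all, limma called none of the 41 members, 11 of which had an unadjusted p under 0.05, and it called 0.476% of all genes higher and 0.468% lower. Leaving out either 10p-HFSC library ended all 7 calls, with 7 and 8 members at an unadjusted p under 0.05, and left 35 and 36 genes of the whole table called higher.

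**Figure D2:**
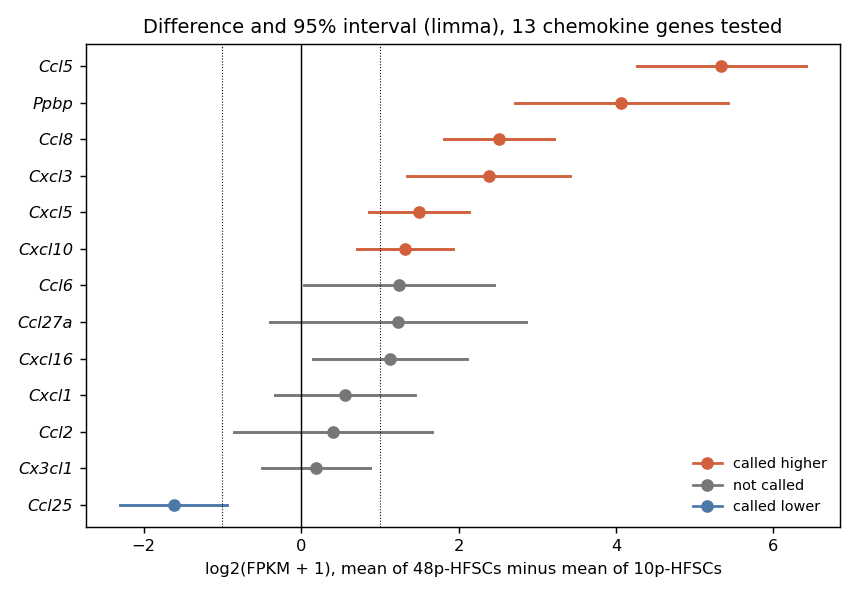
Difference in mean log2(FPKM + 1) between 48p- and 10p-HFSCs with its 95% interval from limma for the 13 chemokine genes tested, with orange for genes called higher, blue for the gene called lower, grey for genes not called and dotted lines at a log2 difference of 1 in each direction. Ccl5 (5.34) and Ppbp (4.07) are farthest to the right, and Ccl25 (-1.62) is the only gene to the left of 0.

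The ligands of Cxcr2, the receptor by which neutrophils are drawn to a site of injury, are encoded side by side within 146.6 kb of chromosome 5, from 90759360 to 90905938 in mm10. In the order of the chromosome the cluster holds Cxcl5, Ppbp, Pf4, Cxcl3, Cxcl15, Cxcl1 and Cxcl2. Summed over the 6 ligands of Cxcr2, which leave out Pf4, FPKM was 8.17 and 9.62 after 10 passages, against 38.7 and 67.5 after 48 passages. In 10p-HFSCs most of this was Cxcl1. In 48p-HFSCs Cxcl1 and Ppbp were close in replicate 1, and Ppbp was the highest in replicate 2.

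Ppbp, which encodes the precursor of the neutrophil attractant CXCL7 and is best known from platelets, was at 0.613 and 0.467 after 10 passages, against 13.5 and 44.8 after 48 passages. The 48p-HFSC libraries differed 3.32-fold from each other, and both were far above the 10p-HFSC libraries. Its log2 difference was 4.07 with a standard error of 0.55 (limma adjusted p = 0.0061), from mean FPKM values of 0.54 ± 0.103 and 29.2 ± 22.2 (SD, n = 2). Pf4, the other platelet chemokine and the direct neighbour of Ppbp, was at 0 in 3 libraries and at 0.271 in replicate 2 of 48p-HFSCs. Of 5 markers of platelets and megakaryocytes, Gp9 and Treml1 were at 0 in all libraries, and the summed level of the 5 was 2.06 and 2.43 after 10 passages, against 1.92 and 2.41 after 48 passages.

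Cxcl3 was at 0.42 and 0.753 after 10 passages, against 4.55 and 11.2 after 48 passages. The groups did not overlap, and the log2 difference was 2.38 with a standard error of 0.42 (limma adjusted p = 0.015). Cxcl5, an epithelial attractant of neutrophils, was at 0.37 and 0.564 after 10 passages, against 3.65 and 2.66 after 48 passages, and limma gave a log2 difference of 1.5 with a standard error of 0.26 (adjusted p = 0.014). Both genes were low in each 10p-HFSC library. The call of Cxcl5 was lost when each library was rescaled to the same summed FPKM (TPM), with an adjusted p of 0.11, and over all alternatives its adjusted p ranged from 0.0022 to 0.19.

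Cxcl1, the ligand of this group that was already present in 10p-HFSCs, was at 6.55 and 7.68 there, and at 15.0 and 7.85 in 48p-HFSCs. The second 48p-HFSC library hardly exceeded the 10p-HFSC libraries, and the log2 difference of 0.56 (95% interval from -0.33 to 1.45, limma adjusted p = 0.31) was not called. Cxcl2 did not pass the filter, with 0.222 and 0.155 after 10 passages, against 1.94 and 0.951 after 48 passages. These values did not overlap, and when Cxcl2 was tested among all genes above 0 its log2 difference was 1.01 (limma adjusted p = 0.069). Cxcl1, Cxcl2 and Cxcl3 are close copies of one another, and reads of one may have been assigned to another, as the handling of reads with several matches is not given in the sources used here.
Within the cluster, the 3 genes called were thus Cxcl5, Ppbp and Cxcl3. At the other end, Cxcl1 was tested and not called, and Cxcl2 could not be called because it missed the filter. Cxcl15, between Cxcl3 and Cxcl1, was at 0 in all libraries. The genes that flank the cluster were not called, with a log2 difference of -0.06 for Rassf6 (limma adjusted p = 0.88) and -1.19 for Mthfd2l (limma adjusted p = 0.062).

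**Figure D3:**
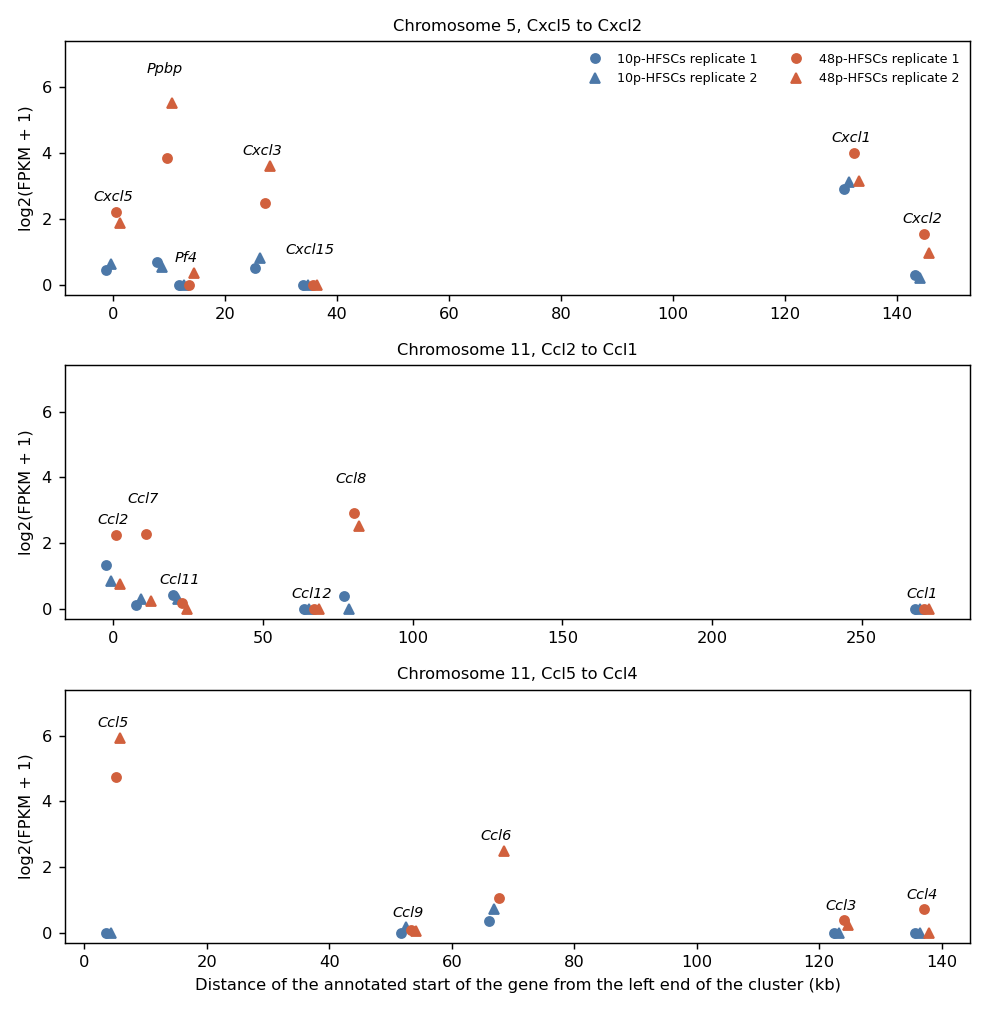
Log2(FPKM + 1) of each member in 3 gene clusters against the distance in kb of the annotated start of the gene from the left end of its cluster, with circles for replicate 1, triangles for replicate 2, blue for 10p-HFSCs and orange for 48p-HFSCs. High and silent genes lie side by side, as with Ppbp at 13.5 and 44.8 beside Pf4 at 0 and 0.271 in 48p-HFSCs. Ccl1 is placed at 270.1 kb by its GENCODE M21 start, although its RefSeq start site lies nearer to Ccl8.

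The 3 ligands of Cxcr3, a receptor of activated T cells, are induced by interferon, and their genes lie in a second group on chromosome 5, from 92321347 to 92365485. Cxcl10 was at 0 and 0.304 after 10 passages, against 1.71 and 1.98 after 48 passages. As FPKM, replicates of 48p-HFSCs were close, and the log2 difference was 1.32 with a standard error of 0.25 (limma adjusted p = 0.018). This call was lost under TPM rescaling, with an adjusted p of 0.051, and its adjusted p ranged from 0.0045 to 0.18 over the alternatives. Cxcl9 stayed at 0.0387 or less in every library and Cxcl11 was at 0, so that 1 of the 3 ligands was above an FPKM of 1. Exons of Cxcl10 overlap those of Art3 on the opposite strand, and Art3 was at 0.0867 or less in every library.

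Cxcl16, a chemokine made as a membrane protein and released by cleavage, was the highest chemokine gene of every library. It was at 39.1 and 42.5 after 10 passages, against 62.2 and 131 after 48 passages. The groups did not overlap. The 48p-HFSC libraries differed 2.11-fold, as their summed FPKM of all genes did (2.12-fold), and the log2 difference of 1.13 (95% interval from 0.15 to 2.11, limma adjusted p = 0.098) was not called. Under TPM rescaling it was 0.55 (limma adjusted p = 0.35). That rescaling moved the median of all genes to -0.55, and relative to this median the difference of Cxcl16 was 1.10. Its share of the summed chemokine FPKM was 66.3% and 56.3% after 10 passages, against 38.7% and 43.2% after 48 passages. Exons of Cxcl16 overlap those of Zmynd15 on the opposite strand. Zmynd15 had an FPKM of 4.52 and 4.10 after 10 passages, against 6.54 and 6.61 after 48 passages. The strand setting of the counting is not given in the sources used here, so that reads of these genes cannot be told apart.

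**Figure D4:**
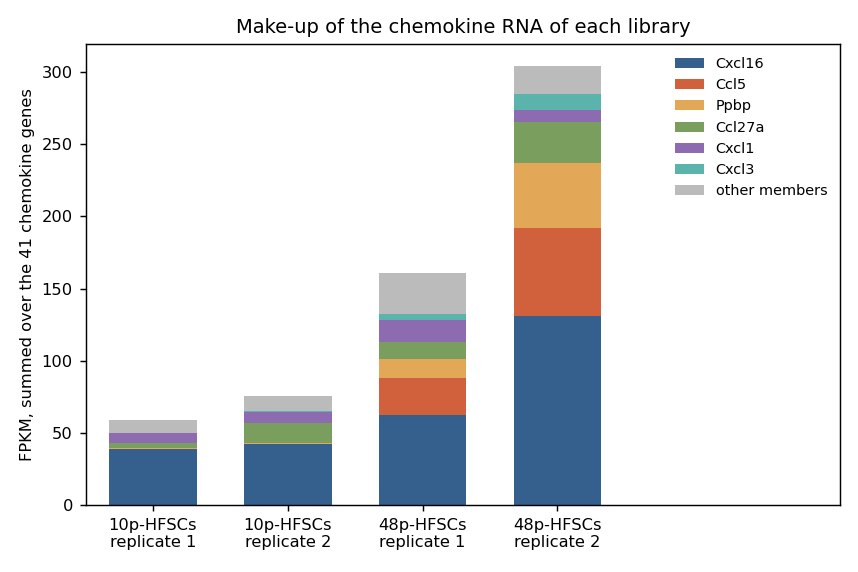
FPKM summed over the 41 chemokine genes in each library, as bars from 0 stacked by gene for the 6 genes named and for the other members together. Cxcl16 makes up 66.3% and 56.3% of the bar after 10 passages and 38.7% and 43.2% after 48, where Ccl5 is the second gene at 16% and 19.9%.

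Among CC genes, Ccl5 differed most. This ligand of Ccr1, a T cell and monocyte attractant, was listed at 0 after 10 passages in each library, and had reached 25.6 and 60.5 after 48 passages. The log2 difference was 5.34 with a standard error of 0.44 (limma adjusted p = 0.0013), which was the largest among the members, and no fold change can be given against a value of 0. In 48p-HFSCs it ranked behind Cxcl16 alone in both libraries. It was above Ppbp in each of them.
Ccl5 lies at one end of a cluster of 5 genes on chromosome 11, from 83525778 to 83664683. Its neighbours Ccl3, Ccl4 and Ccl9 stayed at 0.644 or less in every library. Ccl6, another ligand of Ccr1, was at 0.277 and 0.664 after 10 passages, against 1.10 and 4.67 after 48 passages. The groups did not overlap, but the 48p-HFSC libraries differed 4.24-fold, and the log2 difference of 1.24 (95% interval from 0.04 to 2.44, limma adjusted p = 0.13) was not called.

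A second cluster on chromosome 11, from 82035571 to 82305690, holds Ccl2, Ccl7, Ccl11, Ccl12, Ccl8 and Ccl1. Its right end is that of Ccl1 in GENCODE M21, on the minus strand. The RefSeq promoter window of Ccl1 lies nearer to Ccl8, from 82179813 to 82180062, so that the span depends on the annotation. Ccl8, which in the mouse is a ligand of Ccr8, was at 0.316 and 0 after 10 passages, against 6.49 and 4.74 after 48 passages. Its log2 difference was 2.52 with a standard error of 0.29 (limma adjusted p = 0.0035), and it was the only gene of this cluster that was called. Ccl2, the main attractant of monocytes through Ccr2, was at 1.54 and 0.791 after 10 passages, against 3.71 and 0.693 after 48 passages. Ccl7, which binds the same receptor, was at 0.0819 and 0.229 after 10 passages, against 3.85 and 0.175 after 48 passages. For both genes replicate 1 of 48p-HFSCs was high and replicate 2 was at or near the level of 10p-HFSCs. Without replicate 1 of 48p-HFSCs, the log2 difference of Ccl2 was -0.33 instead of 0.41. Ccl11, a ligand of Ccr3, was at 0.337 and 0.235 after 10 passages, against 0.135 and 0 after 48 passages. Ccl12 and Ccl1 were at 0 in all libraries.

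Ccl25, the ligand of Ccr9 known from thymus and small intestine, was the member called lower. It was at 4.04 and 5.83 after 10 passages, against 0.965 and 0.856 after 48 passages, and limma gave a log2 difference of -1.62 with a standard error of 0.28 (adjusted p = 0.013). The groups did not overlap, and the 48p-HFSC libraries were close to each other as FPKM. Ccl25 lies on chromosome 8 from 4325210 to 4360020, and its exons overlap those of Elavl1 on the opposite strand. Elavl1 was at 13.8 and 20.9 after 10 passages, against 10.7 and 18.8 after 48 passages, ranges that overlapped, and its part in the values of Ccl25 was not tested.

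Of the chemokines that keratinocytes are known for, Ccl27a, a ligand of Ccr10, was at 3.61 and 13.8 after 10 passages, against 11.6 and 28.9 after 48 passages. The groups overlapped, and the log2 difference of 1.23 (95% interval from -0.39 to 2.86, limma adjusted p = 0.23) was not called. Exons of Ccl27a overlap those of Il11ra1, which was at 0.22 and 0.964 after 10 passages, against 4.43 and 9.81 after 48 passages, and its part in the values of Ccl27a was not tested. Ccl27b, a near-identical copy, was listed at 0 throughout, and reads of one copy could have been assigned to the other. Ccl20, the Ccr6 ligand of inflamed epidermis, was listed at 0 in 10p-HFSCs, and was at 0.59 and 0.175 in 48p-HFSCs. Ccl17, a ligand of Ccr4, was at 0 and 0.219 after 10 passages, against 0.567 and 1.01 after 48 passages. Neither passed the filter. Cx3cl1, which like Cxcl16 is anchored in the membrane, was at 1.16 and 1.14 after 10 passages, against 1.97 and 1.03 after 48 passages, a log2 difference of 0.19 (95% interval from -0.49 to 0.88, limma adjusted p = 0.65).

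The replicates of 48p-HFSCs disagreed among the chemokine genes, and the order of the disagreement depended on the scale. As FPKM, replicate 2 was higher than replicate 1 for Ccl6 (4.24-fold), Ppbp (3.32-fold), Ccl27a (2.49-fold), Cxcl3 (2.45-fold), Ccl5 (2.36-fold) and Cxcl16 (2.11-fold), while the summed FPKM of all genes was itself 2.12-fold higher. As a share of that sum, the ratio was 0.994 for Cxcl16, 1.11 for Ccl5, 1.15 for Cxcl3, 1.17 for Ccl27a, 1.56 for Ppbp and 2.00 for Ccl6. Replicate 2 was lower on both scales for Ccl7, Ccl2, Cxcl2, Cxcl1 and Cx3cl1, with FPKM ratios from 0.0455 to 0.525 and share ratios from 0.0214 to 0.247. Ccl25, Ccl8, Cxcl5 and Cxcl10 were closer as FPKM than as shares. Their FPKM ratios were 0.888, 0.731, 0.73 and 1.16, and their share ratios were 0.418, 0.344, 0.343 and 0.546. For Ccl25, Ccl8 and Cxcl5 replicate 2 was thus also lower on both scales. Over all genes tested, 1871 genes differed by at least 2-fold in FPKM + 1 between the 48p-HFSC replicates, and 151 did between the 10p-HFSC replicates.

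The receptors of these chemokines were close to silent. Of 23 receptor genes, signalling and atypical, 9 were listed at 0 in all libraries and 21 stayed under an FPKM of 1 in every library. Cxcr2 alone passed the filter, with 0.275 and 1.08 after 10 passages, against 0.311 and 2.03 after 48 passages, and it was not called (log2 difference 0.29, limma adjusted p = 0.68). Both values above 1 were those of replicate 2. Ackr3, an atypical receptor that takes up Cxcl12 without G protein signalling, was at 0.0533 and 0.0372 after 10 passages, against 1.29 and 0.799 after 48 passages. It missed the filter, and when tested among all genes above 0 its log2 difference of 0.96 (limma adjusted p = 0.029) missed the fold limit. Of the receptors of the other genes called, Cxcr3, Ccr1, Ccr8 and Ccr9 were at 0.0971 or less in every library.

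Genes that control, trim or hold chemokines were taken as a list of 24, of which 19 were tested and 6 were called, 5 higher and 1 lower, against 19.9% of all genes in either direction. Leaving out either 10p-HFSC library ended these 6 calls too, with 6 genes of the list at an unadjusted p under 0.05 each time. Among 7 inducible regulators, Nfkbiz, Irf7 and Irf1 were called higher. Nfkbiz, which encodes a nuclear cofactor of NF-kB needed for part of its targets, was at 2.1 and 2.48 after 10 passages, against 20.2 and 24.5 after 48 passages, and limma gave a log2 difference of 2.82 with a standard error of 0.27 (adjusted p = 0.0021). Irf7, a transcription factor of the interferon response, was at 6.68 and 6.14 after 10 passages, against 64.1 and 50.1 after 48 passages, a log2 difference of 2.96 (limma adjusted p = 0.0016). Irf1 was at 32.9 and 29.0 after 10 passages, against 80.7 and 80.2 after 48 passages, a log2 difference of 1.35 (limma adjusted p = 0.016). Under TPM rescaling this difference was 0.78 and not called, and it was 1.33 relative to the median of all genes. Its adjusted p-values from limma ranged from 0.002 to 0.27 over all alternatives. Nfkbia, which encodes an inhibitor of NF-kB, was at 28.0 and 26.7 after 10 passages, against 10.6 and 18.8 after 48 passages, and was not called (log2 difference -0.90, limma adjusted p = 0.11). Tnfaip3 and Cebpb were not called either.

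Of the 4 syndecans, whose heparan sulfate chains bind chemokines at the cell surface, 3 were called. Sdc1 and Sdc2 were called higher and Sdc3 lower. Over all genes tested, 19.9% were called in either direction. Sdc1 was at 89.6 and 78.7 after 10 passages, against 561 and 512 after 48 passages, a log2 difference of 2.66 (limma adjusted p = 0.004). Sdc2 was listed at 0 in 10p-HFSCs and was at 2.22 and 2.42 in 48p-HFSCs (limma adjusted p = 0.0049). Sdc3 was at 1.81 and 1.52 in 10p-HFSCs and was listed at 0 in 48p-HFSCs (limma adjusted p = 0.0096). Sdc2 passed the filter only through the 48p-HFSC libraries and Sdc3 only through the 10p-HFSC libraries. Their direction was therefore in part set by the filter. None of the 5 genes that act on chemokine mRNA was called. Zfp36, which promotes decay of such mRNAs, was at 19.6 and 17.9 after 10 passages, against 36.8 and 20.1 after 48 passages (limma adjusted p = 0.31). Zfp36l1 had an adjusted p of 0.047 from limma but a log2 difference of 0.95, under the fold limit. Of 8 proteases, Adam10, which releases Cxcl16 and Cx3cl1 from the membrane, Adam17 and Mmp14 were tested and not called, and Dpp4, which trims many chemokines, was at 0 in all libraries.

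**Figure D5:**
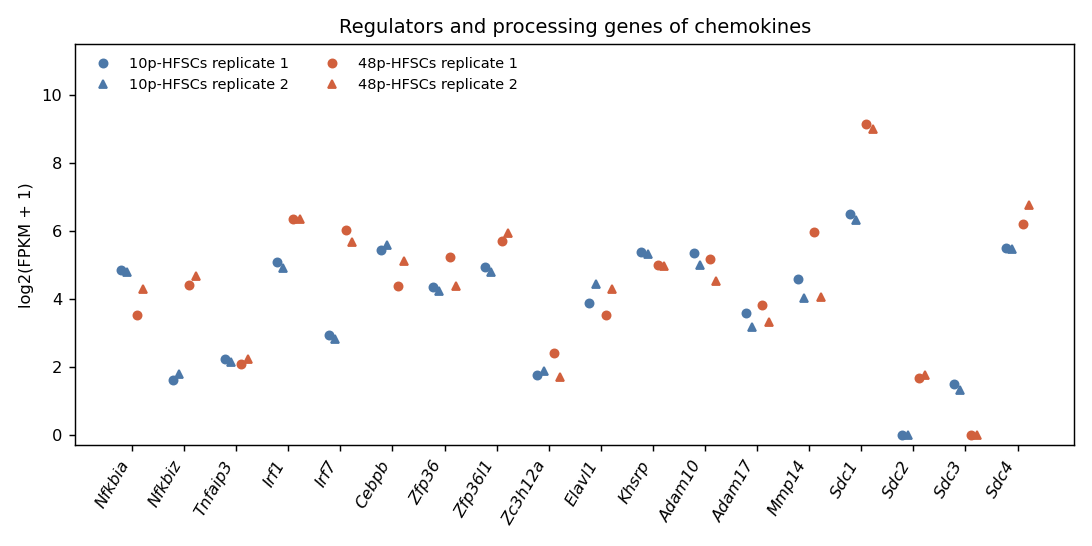
Log2(FPKM + 1) of tested genes that regulate, process or hold chemokines, with circles for replicate 1, triangles for replicate 2, blue for 10p-HFSCs and orange for 48p-HFSCs. Nfkbiz, Irf1, Irf7, Sdc1 and Sdc2 are higher in both 48p-HFSC libraries, and Sdc3 is at 0 in both.

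Markers of cells that make chemokines in skin were read in the same libraries. Of 13 leukocyte markers, 8 stayed under an FPKM of 1 in every library. Tyrobp and Cd3e were at 0 and Ptprc, the pan-leukocyte gene, was at 0.0711 or less. Cd68 and Lyz2 were called higher in 48p-HFSCs (log2 differences 3.03 and 1.33, limma adjusted p = 0.002 and 0.023), and S100a8 was called lower (log2 difference -2.38, limma adjusted p = 0.01). The summed level of the 13 was 134 and 198 after 10 passages, against 142 and 114 after 48 passages. S100a8 and S100a9, which keratinocytes also express, made up most of it in 3 libraries, and Cd68, at 78.7, did in replicate 2 of 48p-HFSCs. Of 5 markers of Langerhans and dendritic cells, Cd207, Itgax and Flt3 were at 0, while Cd74 and Batf3 were called higher, and the sum was 0.431 and 0.335 after 10 passages, against 63.7 and 106 after 48 passages, nearly all Cd74. Lyz2, Cd74 and Batf3 passed the filter only through the 48p-HFSC libraries, so that their direction was in part set by the filter. The part of leukocytes and of Langerhans and dendritic cells in the chemokine values was not tested. Of 7 fibroblast markers, 6 stayed under 1 in every library. Their sum was 68.9 and 60.2 in 10p-HFSCs, nearly all Col1a2, and 0.151 and 0.242 in 48p-HFSCs. Of 4 melanocyte markers, Dct was at 0, and the sum was 0.486 and 0.64 after 10 passages, against 2.15 and 10.8 after 48 passages. Of 4 endothelial markers, 3 stayed under 1, and the sum was 2.54 and 2.3 after 10 passages, against 1.37 and 0.292 after 48 passages.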

How the data were processed

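Messenger RNA libraries, 4 in all, came from a kit that keeps strand, sequenced single-end at 101 bp. Per the labels and methods, the authors mapped reads to mm10 with TopHat 2.1.1 and deposited 1 FPKM value per gene symbol and library, computed with Cufflinks per the methods and with Cuffdiff 2.2.1 per the submitters' processing notes. Those notes also name Bowtie2 2.2.8 and SAMtools 0.1.18, and the methods give other versions of both. The gene annotation and the strand setting are not given in the sources used here. FPKM values are not counts, so no test for counts was run, and no counting interval can be given because absolute depth is unknown.

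Groups were taken from the sample titles. Values were analysed as log2(FPKM + 1) without further scaling, for genes that reached an FPKM of 1 in 2 or more of the libraries, with limma 3.58.1 in R 4.3.3 (variance trend, Benjamini-Hochberg over 11018 genes). Differences on this scale understate the change of low genes. For a single gene, an exact permutation test of 2 libraries against 2 cannot give a two-sided p under 0.333, so that calls rest on the variance limma shares across genes. The fit was tested on simulated data. Gene positions and transcript lengths came from GENCODE M21 (GRCm38), which placed 40 of the 41 members. Overlaps are between annotated exons. Members within 500 kb were taken as one cluster.

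The named genes are all members with an FPKM of at least 1 in any library, called genes of the receptor list and of the list of regulators and processing genes, and the receptors of called members. Markers are given by counts and sums, with defining markers at 0. Every other gene named was chosen after its values were seen. Members and lists were chosen with earlier results of these data known. Alternatives were a pseudocount of 0.1, other filters, TPM, median-of-ratios and quantile scaling, a constant variance prior, other thresholds, the replicate number as a block, correction for transcript length and GC content, and leaving out each library. A few genes of these lists are counted but not reported here by name.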

Additional observations from a re-analysis of the deposited data

How the results depend on the processing

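The count of chemokine genes called higher stayed between 4 and 9, from 6, under the alternatives that kept all libraries, except without any filter on low FPKM. There no member was called in either direction by limma, with 11 of 41 members at an unadjusted p under 0.05, and the whole table had 116 genes called higher and 114 lower, down from 1189 and 1008. When only genes at 0 in every library were left out, 637 genes were called lower. TPM rescaling called 620 genes higher and 820 lower and moved the median log2 difference of all genes from -0.03 to -0.55. Relative to that median the members called still differed by between 1.72 and 5.69 upward and, for Ccl25, by -1.46. TPM rescaling called 4 members higher, without Cxcl5 and Cxcl10.

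With each library left out in turn, a fit in which a lone library is assumed to vary like the other group, the number of members called higher ranged from 0 to 8, that of members called lower from 0 to 1, and that of regulator and processing genes called from 0 to 9. Over all genes these ranges were 35 to 1936 higher and 140 to 1875 lower. The low ends came from leaving out a 10p-HFSC library and the high counts of all genes from leaving out replicate 1 of 48p-HFSCs. The log2 differences of the 6 members called higher and of Ccl25 kept their direction under every alternative. All 6 had passed the filter only through the 48p-HFSC libraries, and Ccl25 only through the 10p-HFSC libraries. A turn in direction was therefore hardly possible, and nothing is concluded from its absence.

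Directions turned only for genes that were not called. Ccl2 was at -0.086 once transcript length and GC content were corrected for, with and without the replicate block, and between -0.33 and 1.14 with libraries left out. Cx3cl1 was at -0.078 under TPM rescaling and between -0.082 and 0.46 with libraries left out, and Cxcr2 at -0.022 and between -0.31 and 0.89. For Ccl2, Cx3cl1 and Cxcr2 the cause was not tested.

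The groups share replicate numbers, but nothing in the sources used here says that same-numbered libraries were made together, and the deviations of same-numbered libraries had a correlation of 0.408 across genes. Under the replicate block, 9 members were called higher, adding Ccl6, Ccl27a and Cxcl16, and 1 lower, against 1613 and 1497 of all genes. With the block and the correction for length and GC content together, 7 members were called higher, against 1537 of all genes. Low depth in replicate 2 of 48p-HFSCs limits the precision of values under an FPKM of 1.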
